A study of Homo sapiens with 6 samples.

Results

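The H/ACA box small nucleolar RNAs (gene symbols starting SNORA) and the small Cajal body RNAs (SCARNA) were followed in MDA-MB-231 cells grown on glucose or on fructose. Every probe set whose platform annotation names a single SNORA or SCARNA gene was taken, and the brightest was kept where a gene had several. That gave 81 probe sets and 77 genes, 61 SNORA and 16 SCARNA, of 18404 genes measured by a probe set with a single symbol. A further 27 probe sets name a SNORA or SCARNA among several genes, and the 20 symbols found only there were not analysed here. MDA-MB-231 is an established human cell line that came from a breast cancer of the triple-negative kind. Of the 6 cultures, 3 were kept in medium with 25 mM glucose and 3 in medium with 10 mM fructose, each for 25 days, and each array held RNA of a separately adapted batch of cells. RNA was taken near 70% confluency, about 24 hours after a medium change. The sugar and its concentration differed together and cannot be told apart, and all cultures are of 1 cell line. The submitters' title speaks of restricted glycolysis.

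H/ACA RNAs fold into hairpins and, bound by dyskerin (DKC1), NOP10, NHP2 and GAR1, choose the uridines that dyskerin turns into pseudouridine. SNORA RNAs work in the nucleolus, mainly on ribosomal RNA, while SCARNA RNAs collect in Cajal bodies and guide the modification of spliceosomal RNAs. Some SCARNA carry the H/ACA box, some the C/D box that guides methylation, and some both. In human cells most of these RNAs are trimmed out of introns of other genes, their hosts.

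The values are RMA intensities, a background-corrected and normalized brightness per probe set, and differences are given as fructose minus glucose on the log2 scale. Over the tested probe sets the intensities ran from 2.15 to 7938, with array medians between 31.5 and 33.5. Among the markers of this mesenchymal-type line, 4 of 5 were above the brightness limit described next, against 2 of 6 luminal, 0 of 4 leukocyte and 0 of 5 fibroblast markers. Silica columns of the kind used hold short RNAs poorly, and a probe set on an intronic RNA may also read its unspliced host. The values are therefore signals of probe sets, and the part of either in the differences was not tested. Of the 77 genes, 41 belong to families of numbered copies, between which hybridisation may be shared.

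A gene was called bright when its mean log2 intensity over the 6 arrays was above 5.65, the median of probe sets with a single symbol. By this limit 36 of the 77 genes were bright, or 46.8%, made up of 28 SNORA and 8 SCARNA. SNORA51 at 5.65 and SCARNA7 at 5.66 lay just inside, and SNORA6 at 5.64 and SNORA52 at 5.62 just outside. The annotated lengths ran from 123 to 236 bases for SNORA and from 125 to 421 bases for SCARNA, with medians of 134 and 226.5 bases.

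None of the 77 RNAs passed the test between the sugars. In limma's fit over 28230 probe sets, the smallest Benjamini-Hochberg adjusted p of a member was 0.20, and 0 of 77 were called at 0.05, where 0.00354% of all probe sets were called (1 probe set, for TXNIP). At an unadjusted p under 0.05 there were 14 members, or 18.2%, beside 13.1% of all probe sets. Of these, 8 were higher and 6 lower in fructose, where 7.65% and 5.43% of all probe sets were. Among bright members the count was 6 of 36, or 16.7%, below the 19.1% of all bright probe sets with 1 symbol, of which 10.8% were higher and 8.35% lower in fructose and 0.0104% were called after adjustment. The arrays of the sugars did not overlap for 17 members, 8 higher and 9 lower in fructose, beside 11.4% and 8.81% of all probe sets and 20.2% in either direction. Among the bright members 4 were apart upwards and 5 downwards, beside 17.4% and 15.6% of bright probe sets and 32.9% in either direction. Over all 77 members these shares are thus near the background. At an unadjusted p under 0.05 bright members lie below theirs, while dim members are at 19.5%, beside 9.14% of dim genes with a single symbol. The 95% interval of a member reached 0.27 to either side at the median, with 3 arrays a sugar.

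**Figure D1:**
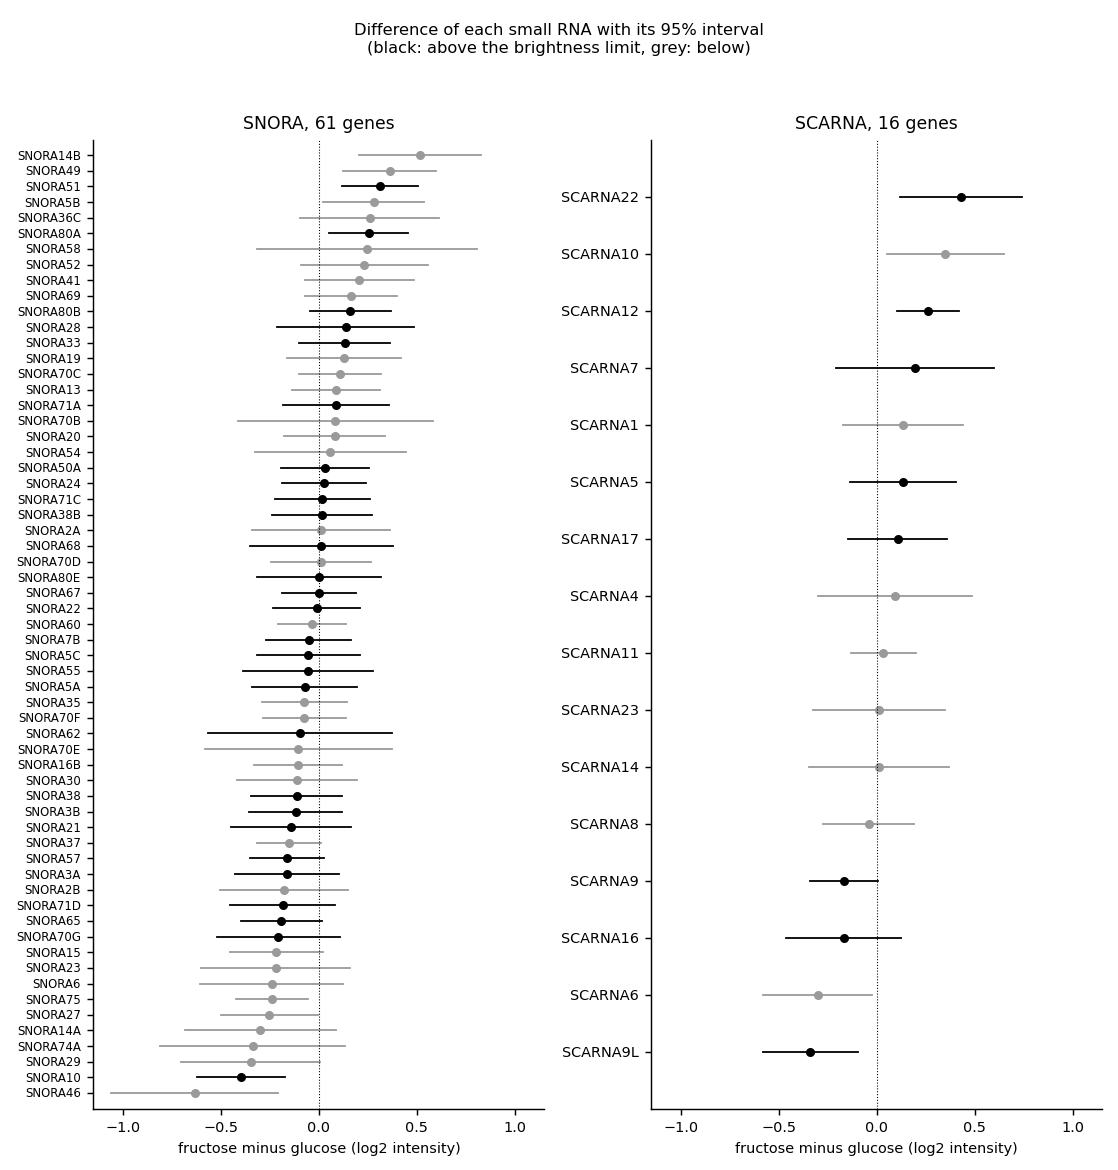
Difference between fructose and glucose in log2 intensity for each of the 61 SNORA and 16 SCARNA genes, ordered by size, with points for the estimate and bars for its 95% interval from limma (3 arrays a sugar). Black marks the 36 bright genes and grey the rest; most bars cross 0, and 14 do not.

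The SCARNA that carry both box types spanned both directions. SCARNA12, also called U89, is one of these and lies within PHB2, the gene of the mitochondrial prohibitin 2. Its intensities were 130.2, 125 and 129 on the glucose arrays and 160.1, 146 and 154 on the fructose arrays. All fructose values lay above all glucose values, and the difference was 0.26 ± 0.07 (SE), a 1.20-fold ratio, with an adjusted p of 0.21. SCARNA10, also called U85, lies in the condensin gene NCAPD2 and guides both kinds of modification on a spliceosomal RNA. It was dim, with 40.3, 40.3 and 30.7 in glucose and 43.0, 50.7 and 47.4 in fructose. These arrays did not overlap either, with a difference of 0.35 ± 0.13 (SE) and an adjusted p of 0.32. SCARNA5 and SCARNA6, or U87 and U88, share the autophagy gene ATG16L1 as host. SCARNA5 read 58.5, 51.4 and 65.7 in glucose against 61.6, 59.3 and 71.3 in fructose, with overlap and a difference of 0.13. SCARNA6, which was dim, read 22.4, 23.7 and 19.0 against 16.6, 20.1 and 16.1, a difference of -0.30. The pair thus had opposite signs in a shared host, which itself differed by 0.18. Of these 4 mixed-type RNAs, 3 were at an unadjusted p under 0.05, where 13.1% of all probe sets were, and their median difference was 0.20.

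SCARNA22 had the largest difference of any bright member. It is an H/ACA-type RNA of 125 bases inside NSD2, a histone methyltransferase gene. Its probe set read 120.2, 120.1 and 95.7 in glucose and 166, 158 and 129 in fructose. The lowest fructose array exceeded the highest glucose array, the difference was 0.43 ± 0.13 (SE), a 1.34-fold ratio, and the adjusted p was 0.26. The 8 H/ACA-type SCARNA together had a median difference of 0.023.

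SCARNA16 is also of the H/ACA type. It read 55.5, 55.2 and 56.9 in glucose and 50.0, 41.5 and 59.0 in fructose, an overlapping pair of groups with a difference of -0.17. Its end is shown because the RefSeq annotation places a microRNA hairpin there, so that it is the one member for which a source used here holds sequence. The hairpin MIR6516 spans chr17:77089417-77089497 on the plus strand of GRCh38.p14, and 77 of its 81 bases lie inside the 187 bases of SCARNA16. The capitals mark the ACA box of the H/ACA class, which starts at base 72 of the hairpin and ends 3 bases before the end of SCARNA16, the place where such RNAs carry it.
MIR6516: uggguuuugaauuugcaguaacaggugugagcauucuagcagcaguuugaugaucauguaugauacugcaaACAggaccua

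SCARNA9 and SCARNA9L were the brightest SCARNA probe sets, and both lay lower in fructose. SCARNA9 guides methylation of a spliceosomal RNA and lies within CEP295, a centriole gene. It read 685, 668 and 647 in glucose and 562, 584 and 635 in fructose. The groups did not overlap, and the difference was -0.17 ± 0.07 (SE) with an adjusted p of 0.39. SCARNA9L, a related gene within the translation factor gene EIF1AX, read 177, 156 and 166 against 119, 149 and 127. Its difference was -0.34 ± 0.10 (SE), again without overlap, and its adjusted p was 0.26. Each gene has a second, dimmer probe set that went the other way, by 0.13 for SCARNA9 and 0.14 for SCARNA9L, with overlapping arrays. The sign for these genes therefore depends on the probe set. SCARNA17, of the C/D type and within SNHG22, read 81.4, 61.6 and 72.2 in glucose and 76.6, 77.6 and 75.7 in fructose on its brighter probe set, a difference of 0.11. Its second probe set was almost as bright and read 68.9, 63.6 and 63.4 against 91.1, 77.2 and 81.9, a difference of 0.35 with no overlap and an adjusted p of 0.20. The 3 SCARNA of the C/D type had a median of 0.11.

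**Figure D2:**
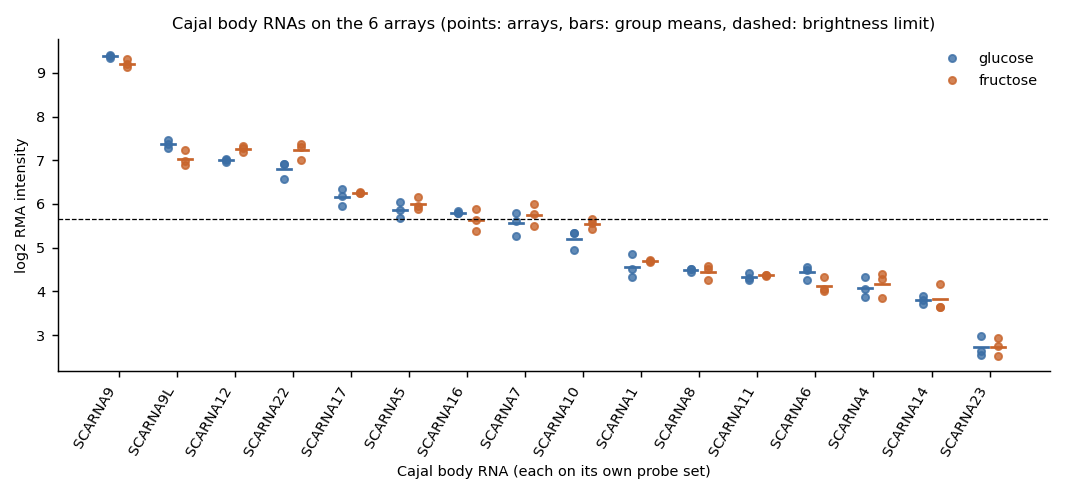
Log2 RMA intensity of the 16 SCARNA on each array, ordered by brightness, with blue for glucose, orange for fructose, short bars for the group means and a dashed line at the brightness limit of 5.65. SCARNA12, SCARNA22 and SCARNA10 have all orange points above the blue ones, and SCARNA9 and SCARNA9L all below.

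Among the SNORA, SNORA10 had the smallest p of any member. The gene of this symbol, an H/ACA guide for ribosomal RNA, lies within RPS2, a gene of the small ribosomal subunit. Its probe set is numbered among those of chromosome 2 genes, so the values are likely those of the other copy in its family. The glucose arrays read 167, 136 and 140 and the fructose arrays 116, 113 and 107. All 3 fructose values were lower, with a difference of -0.40 ± 0.10 (SE), 1.32-fold lower, and an adjusted p of 0.20. In a fit of the bright probe sets alone, which called 5.2% of them, SNORA10 and SCARNA12 passed, with limma adjusted p of 0.045 and 0.043. With an intensity trend and robust variances, which called 1.68% of all probe sets, 0 of 77 members passed. The other bright SNORA lower in fructose by the smallest p were SNORA65 in RPL12, SNORA57, SNORA71D and SNORA70G. SNORA65 read 60.05, 69.4 and 60.2 against 58.0, 56.1 and 51.7, a difference of -0.19. SNORA57 was far brighter, at 462, 401 and 416 against 364, 396 and 380.3, a difference of -0.16. The groups of these 2 genes did not overlap, while those of SNORA71D (-0.18) and SNORA70G (-0.21) did.

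SNORA51 and SNORA80A led the bright SNORA that were higher in fructose. SNORA51 lies in NOP56, a core protein of the C/D particles. It read 42.9, 45.6 and 46.7 in glucose and 53.6, 53.2 and 61.1 in fructose. The groups were apart, with a difference of 0.31 ± 0.08 (SE), a 1.24-fold ratio, and an adjusted p of 0.22. SNORA80A, within the ribosome biogenesis gene URB1, read 101, 99.3 and 113 against 128, 115 and 131. Its difference was 0.25 ± 0.09 (SE), without overlap, and its adjusted p was 0.30. SNORA80B in ODC1, the first enzyme of polyamine synthesis, differed by 0.16 and SNORA80E by 0.0014, so the 3 members of this family had 1 sign but overlapped in 2 of 3 cases. SNORA28 (0.14) and SNORA33 (0.13) completed the higher group, with overlapping arrays.

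Of the 5 brightest SNORA, SNORA57, given above, was the third and had groups that did not overlap, while the groups of the other 4 did. SNORA24, a guide for the small-subunit ribosomal RNA within SNHG8, read 936, 928 and 1021 in glucose and 1043, 1024 and 875 in fructose, a difference of 0.026 with a 95% interval from -0.19 to 0.24. SNORA22 read 514, 521 and 475 against 541, 519 and 443, a difference of -0.011. SNORA3B in RPL27A read 268, 336 and 302 against 258, 290.3 and 283, a difference of -0.12. SNORA71A in SNHG17 read 218, 215 and 219.7 against 265, 238 and 195, a difference of 0.086. Fructose replicate 3 was the lowest fructose array for SNORA24, SNORA22 and SNORA71A. SNORA62, also called E2 and needed for ribosomal RNA processing, differed by -0.098, and its 95% interval ran from -0.57 to 0.37. SNORA74A, known as U19, was dim and read 35.8, 40.6 and 33.6 against 40.3, 23.3 and 25.8, a difference of -0.34 with overlap.

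Below the brightness limit, 8 of 41 members were at an unadjusted p under 0.05, 4 in each direction. That is 19.5%, beside 9.14% of the 9162 dim genes with a single symbol. Those not yet named were picked after their values were seen. SNORA14B had the largest positive difference, 0.51, with 29.2, 33.3 and 39.7 in glucose and 48.0, 53.9 and 43.6 in fructose. SNORA46 had the largest negative one, -0.63, with 17.2, 17.4 and 18.0 against 15.1, 8.87 and 10.7. The second member in its host, SNORA50A in CNOT1, differed by 0.030. SNORA49 (0.36) and SNORA5B (0.28) were higher in fructose, and SNORA75 (-0.24) and SNORA27 (-0.25) lower. SNORA5B shares its host TBRG4 with SNORA5A and SNORA5C, which differed by -0.072 and -0.056. None of the adjusted p of these 6 was below 0.21.

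As classes, SNORA were centred slightly below the median of all tested probe sets and SCARNA slightly above it, all of them near no difference. The median difference was -0.036 for the 61 SNORA, with 29 higher and 32 lower, and 0.062 for the 16 SCARNA, with 11 higher and 5 lower. The median over all tested probe sets was 0.021. At an unadjusted p under 0.05 there were 9 SNORA (14.8%) and 5 SCARNA (31.2%), beside 13.1% of all probe sets and 14.3% of genes with a single symbol. These SCARNA were 3 higher and 2 lower, against 1 higher and 2 lower in an unmoderated test. The SCARNA median exceeded the SNORA median by 0.098. Measured on each array against the glucose means, this gap was 0.059, 0.019 and -0.043 in glucose and 0.076, 0.082 and 0.13 in fructose. All fructose arrays were thus above the glucose arrays, the nearest of them by less than the range among the glucose arrays. Without glucose replicate 2 the gap was 0.054 and the SCARNA median 0.019, and without fructose replicate 3 or 2 the SNORA median was -0.0094. Without fructose replicate 1 or glucose replicate 1 the SCARNA median was 0.038 or 0.034, and without glucose replicate 3 the SNORA median was -0.023.

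Among bright members the medians were -0.032 for 28 SNORA and 0.12 for 8 SCARNA, a gap of 0.15. On the arrays this gap was 0.067, 0.028 and -0.026 in glucose and 0.014, 0.067 and 0.25 in fructose, with overlap. Centring each array on its median turned the bright SNORA from 13 higher and 15 lower to 7 higher and 21 lower, and quantile normalization to 9 and 19. Leaving out fructose replicate 3 turned the bright SNORA median to 0.014, and it was -0.060 without fructose replicate 1, -0.0098 without fructose replicate 2 and -0.019 without glucose replicate 3. Without glucose replicate 2 the bright SCARNA median was 0.022 and the gap 0.065. The gap was 0.094 and 0.070 without fructose replicates 2 and 3, 0.099 without glucose replicate 3, and at most 0.20 with any 1 array left out. The C/D box RNAs of the nucleolus (SNORD), which guide methylation, are the class most like these. The 115 SNORD genes had a median difference of -0.049, with 46 higher and 69 lower. The 43 bright ones had a median of -0.27, with 6 higher and 37 lower, and the 72 dim ones a median of 0.033, with 40 higher and 32 lower. The array medians of the bright SNORD were -0.28, -0.26 and -0.40 in fructose, where those of bright SNORA were -0.0030, 0.0084 and -0.10. The difference between the classes was not tested.

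**Figure D3:**
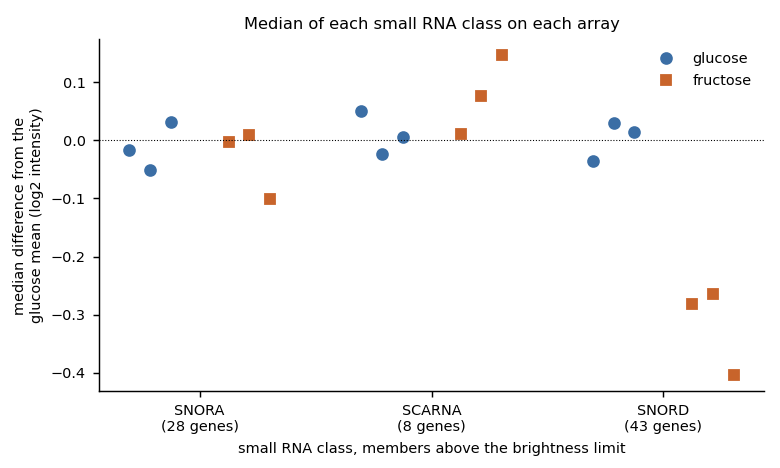
Median over the bright genes of each class of the log2 difference from the glucose mean, 1 point per array (blue circles glucose, orange squares fructose; replicates 1 to 3 from left to right). SNORA and SCARNA arrays overlap between the sugars, and the 3 fructose arrays of SNORD lie at -0.26 or below.

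Host genes were then set beside the RNAs they hold. By the RefSeq gene table for GRCh38.p14, 66 members lie inside exactly 1 gene and 11 inside several, strand not considered. Hosts were taken from the position of each member's gene, and the position that its probe set reads was not checked. SNORA10 is 1 of 2 symbols in its family, and by its number its probe set likely reads the other copy, outside RPS2. The pair is still counted below. A probe set for the host was measured in 55 pairs with 46 hosts. The member and its host had the same sign in 26 of 55 pairs, and in 10 of 24 where both were bright. Across the 55 pairs the differences had a Pearson r of 0.12 and a Spearman rho of 0.10, a description over pairs that share arrays and some hosts. NSD2 differed by -0.019 where SCARNA22 differed by 0.43, and PHB2 by 0.072 where SCARNA12 differed by 0.26. RPS2 differed by 0.026 beside -0.40 for the SNORA10 probe set, which likely reads elsewhere. EIF1AX differed by -0.27 beside -0.34 for SCARNA9L, with r of 0.90 between them over the 6 arrays, while the dimmer SCARNA9L probe set differed by 0.14. Over the 55 pairs this r ran from -0.87 to 0.96, with a median of 0.039 and 28 above 0. None of the hosts was called. At an unadjusted p under 0.05 there were 7 of 46 hosts, beside 13.1% of all probe sets and 19.1% of bright ones with 1 symbol.

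**Figure D4:**
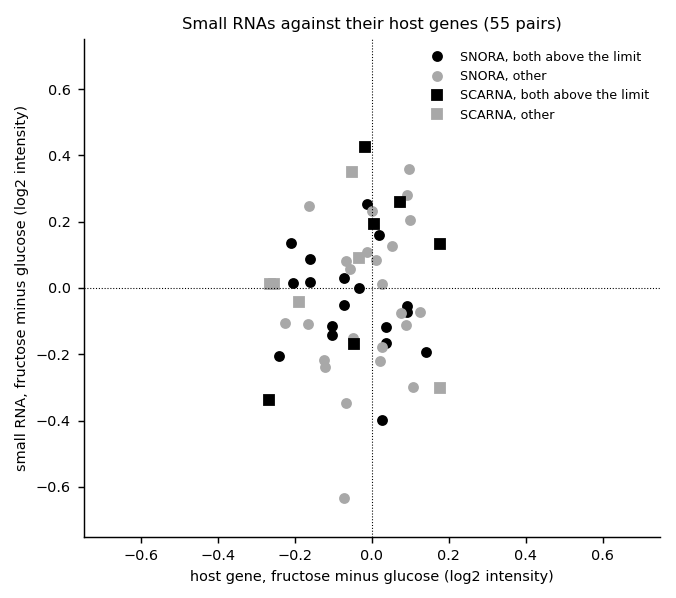
Log2 difference of each member (vertical) against that of its host gene (horizontal), for 55 pairs, with circles for SNORA, squares for SCARNA and black where both are bright. The points do not follow a line (r = 0.12), and 26 of 55 lie in the quadrants of equal sign.

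Many SNORA sit in genes of ribosomal proteins, whose transcripts start with a run of pyrimidines, known as the 5′ terminal oligopyrimidine tract, that ties their translation to nutrient signalling. The starts are shown for hosts in the sequence table of 2 sets of members, from RefSeq on GRCh38.p14, as 10 bases before the annotated start and 20 from it. Capitals mark an unbroken run of C and T that begins at the start. The first set holds the ribosomal protein genes that host SNORA named by the rule for members, RPL27A (chr11:8682782-8682811, plus), RPSA (chr3:39406710-39406739, plus), RPL12 (chr9:127451387-127451416, minus) and RPS12 (chr6:132814559-132814588, plus).
RPL27A, host of SNORA3B: gaaggccttcCTTTTTCgtctgggctgcca
RPSA, host of SNORA62: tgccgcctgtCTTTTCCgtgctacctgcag
RPL12, host of SNORA65: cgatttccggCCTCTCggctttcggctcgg
RPS12, host of SNORA33: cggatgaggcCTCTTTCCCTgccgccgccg

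The second set holds the hosts of members named by that rule that were higher in fructose at an unadjusted p under 0.05, PHB2 (chr12:6970645-6970674, minus), NCAPD2 (chr12:6494092-6494121, plus), NSD2 (chr4:1871383-1871412, plus), NOP56 (chr20:2652622-2652651, plus) and URB1 (chr21:32392993-32393022, minus). Here the run has 5 bases in PHB2, 7 in NCAPD2 and 2 in URB1 and is absent in NSD2 and NOP56.
PHB2, host of SCARNA12: gctgccctttCTTTCgccagccttacgggc
NCAPD2, host of SCARNA10: cgtgttttttCCTTTTCatttcagcctgac
NSD2, host of SCARNA22: gggcggggtcggcgccgcgcgcgagagcct
NOP56, host of SNORA51: cgctagccgcattgcgagccgaacccggga
URB1, host of SNORA80A: ccgcctcttcCTgcgccatgtgggcctgaa

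A run of at least 5 C or T bases from the annotated start, read on the strand of the gene, was present in 7 of 7 ribosomal protein hosts in the sequence table, in 6 of 40 other hosts and in 5.22% of all 27305 genes. The 12 SNORA whose genes lie inside ribosomal protein genes, a grouping made after their values were seen, had a median difference of -0.13, with 4 higher and 8 lower. They include SNORA10, the lowest at -0.40, whose probe set likely reads another copy. Their array medians were -0.068, -0.075 and 0.099 in glucose and -0.15, -0.00031 and -0.28 in fructose, with overlap. The 40 SNORA in other single hosts had a median of 0.0068.

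The proteins that bind and build H/ACA particles lay mostly slightly lower in fructose. Of 10 measured, all of them bright, 2 were higher and 8 lower, with a median of -0.10. Among all bright genes with a single symbol 53.0% were higher, with a median of 0.010. None of the 10 was called, and 1 was at an unadjusted p under 0.05, beside 19.1% of bright probe sets with 1 symbol. The 1 gene was NOLC1, a chaperone of these particles, at 723, 703 and 710.0 in glucose and 630.2, 660.0 and 634 in fructose, a difference of -0.15. Dyskerin, the enzyme, read 640.0, 572 and 629.5 against 533, 571 and 544, and DKC1 thus differed by -0.16 ± 0.07 (SE) with an adjusted p of 0.42. TCOF1, a nucleolar partner of NOLC1, differed by -0.15. Of the other core proteins NOP10 differed by 0.091, NHP2 by -0.0046 and GAR1 by -0.090, and of the assembly factors NAF1 by -0.11 and SHQ1 by -0.014.

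Cajal body and SMN complex genes had 4 of 17 higher and 13 lower, with a median of -0.050. GEMIN2 and USPL1 were the 2 at an unadjusted p under 0.05, each at -0.24. That was 11.8% of the list, beside 13.1% of all probe sets and 19.1% of bright ones with 1 symbol. COIL, the scaffold of Cajal bodies, differed by -0.0051, and WRAP53, which brings SCARNA to them, by -0.090. Of 20 genes for the trimming and decay of small RNA ends, 1 was higher and 3 lower at that level, among them the exosome subunits EXOSC4 (0.20) and EXOSC9 (-0.27) and the helicase MTREX (-0.19). The 12 stand-alone pseudouridine synthases, which need no guide RNA, had 0 at that level, beside 13.1% of all probe sets, and a median of 0.057.

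Other structured small RNAs, a list of 18 measured of 25, had 5 higher and 1 lower at an unadjusted p under 0.05, beside 7.65% and 5.43% of all probe sets, and a median of 0.092. RNU4ATAC, of the minor spliceosome, read 77.0, 68.2 and 67.1 in glucose and 107, 89.5 and 114 in fructose, a difference of 0.54 with an adjusted p of 0.16. RNU4-1 differed by 0.60 and RNU4-2, a second gene for the same spliceosomal RNA, by -0.23 with overlap, and the vault RNA VTRNA1-3 by 0.30. TERC, the telomerase RNA, which ends in an H/ACA domain, read 527, 536 and 529 against 621, 561 and 574. All its fructose arrays were higher, by 0.14 ± 0.07 (SE), with an adjusted p of 0.44. No gene of these 5 lists was called in the limma fit.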

How the data were processed

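The 6 arrays, 3 a sugar, were compared. For each array the authors deposited a single RMA intensity per probe set, per the submitters' processing notes; the RMA version, the program and any build are not stated there. These values are linear and were converted to log2. Of 32321 rows, 4091 with identifiers below the lowest annotated one were presumed controls and left out. The remaining 28230 were fitted with limma 3.58.1 in R 4.3.3 (lmFit, eBayes, two-sided, no covariate), adjusted by Benjamini-Hochberg over all of them at 0.05. The procedure was tested on simulated data. Precision is limited by the few arrays.

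The members and lists were chosen with earlier results of these data known. Named were members past the threshold, the bright SNORA (5 each way) and SCARNA (3 each way) with the smallest p, the 5 brightest of each class, a set of 13 well-known members (7 measured by a single-symbol probe set, 6 not analysed here), their hosts, and up to 3 genes of each list with the smallest p. Hosts were to be matched by strand too, but the gene table used gives none, so span alone was used. No list was given a test of its own. Box types of SCARNA and list membership are from general knowledge. Other settings tried were the replicate number as a block, leaving out single arrays, repeated quantile normalization, centring of arrays, a fit without dim probe sets, eBayes with trend and robust variances, weights per array, no moderation, averaging the probe sets of a symbol, and counting bright members only.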

Additional observations from a re-analysis of the deposited data

How the results depend on the processing

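The count of called probe sets depended on the variance model and the filter. It was 1 in the fit reported, 600 when bright probe sets alone were fitted, 473 with an intensity trend and robust variances, and 0 in an unmoderated test. Members called were 2 with bright probe sets alone and 0 under every other alternative fitted. Members at an unadjusted p under 0.05 were 9 in the fit of bright probe sets, which holds 36 members, 6 when bright members were counted in the reported fit, and otherwise between 11 and 18. The SCARNA median was 0.12 and SNORA minus SCARNA -0.15 in both bright settings, and the SNORA median -0.061 after centring. SNORA at that level were 5 higher and 4 lower as reported, 5 and 8 after quantile normalization, and 5 and 6 after centring. SCARNA were 3 higher and 2 lower as reported, 4 and 1 with the probe sets of a symbol averaged, and 1 and 2 without moderation. With 1 array left out at a time, called probe sets stayed at 1 to 1, called members at 0 to 0, members at an unadjusted p under 0.05 between 11 and 16, the SNORA median between -0.051 and -0.0094, the SCARNA median between 0.019 and 0.084, and SNORA minus SCARNA between -0.094 and -0.054. Of 25 named members, 4 changed sign under some alternative (SNORA22, SNORA24, SNORA62, SNORA71A), none with a reported difference beyond 0.098.

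Same-numbered arrays had correlations of -0.026, -0.021 and -0.054 in their deviations from the group means. Differently numbered arrays ran from -0.037 to 0.063. No variation shared by replicate number was thus seen, though such correlations cannot settle whether the cultures were paired. With the replicate block, 1 probe set and 0 members were called, 14 members were at an unadjusted p under 0.05, the smallest adjusted p of a member was 0.37, and the medians were -0.036 for SNORA, 0.062 for SCARNA and -0.098 for their difference. For all these values the cause was not tested. The fit of bright probe sets holds fewer probe sets, and 25.2% of them were at an unadjusted p under 0.05. In the reported fit 18.6% of bright probe sets were. The precision is limited by 3 arrays a sugar.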
